A study of Homo sapiens with 12 samples.

Results

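The 10 genes described here encode subunits of the nucleosome remodeling and deacetylase (NuRD) complex, namely CHD3, CHD4, MTA1, MTA2, MTA3, MBD3, HDAC1, HDAC2, GATAD2A and GATAD2B, among the 19061 protein-coding genes with a MANE Select transcript. Chromatin accessibility over them was read from 2 tables of 100-bp bins, taking every bin within the gene body or 10 kb on either side (GENCODE v44, GRCh38). Adjoining bins were joined into accessible regions. The windows held 724 of 709366 bins (64 of 79177 regions) in DU-145, 561 of 472994 bins (42 of 46298 regions) in BT-549 and 464 of the 321392 bins (38 of 32671 regions) that both tables hold. The study asked how MUC1-C, the transmembrane subunit of the mucin MUC1, alters chromatin accessibility in cancer stem cells. ATAC-seq, which maps open chromatin by the insertions of the Tn5 transposase, was performed on DU-145 cells, a castration-resistant prostate cancer (CRPC) line, and on BT-549 cells, a triple-negative breast cancer (TNBC) line. All cells held tet-MUC1shRNA, a hairpin against MUC1 that doxycycline (DOX) switches on, and received vehicle (0.1% DMSO) or DOX for a week, with 3 libraries per group and 12 in all. The vehicle groups hold the hairpin too. DOX-treated cells of a control hairpin were not analysed here, so the effects of silencing MUC1-C and of DOX itself share 1 contrast. The hairpin acts on RNA, and accessibility holds no check of it. The study's methods describe the replicates as biologically independent.

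NuRD couples the ATP-dependent movement of nucleosomes by CHD3 or CHD4 to the removal of acetyl groups from histones by HDAC1 and HDAC2. The MTA proteins form the scaffold that holds the deacetylases, MBD3 (or MBD2 in its place) bridges the deacetylase and the remodeling modules, and GATAD2A or GATAD2B links MBD to the CHD subunit. Paralogs replace one another within the complex, which acts at enhancers and promoters, mostly as a brake on transcription, and is known for its part in pluripotency and in cell-state changes of carcinoma cells. An accessible promoter is a region where nucleosomes are sparse around the transcript start. Accessibility says where the DNA is open and is no measure of the RNA or protein of these genes.

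The libraries differed in depth. In units of 1000000, the summed bin coverage of the DU-145 libraries ranged from 12.4 to 24.0 (vehicle) and from 16.3 to 25.2 (DOX). That of the BT-549 libraries ranged from 9.14 to 13.6 (vehicle) and from 2.50 to 3.27 (DOX), so the last group has the least coverage behind each value. Levels are given as mean coverage per 100-bp bin per 1000000 of the library's summed coverage. Peak calls at marker promoters differed between the lines, though these markers do not test the tissue named in the labels. All 5 epithelial markers (EPCAM, CDH1, KRT8, KRT18, GRHL2) had a peak in every DU-145 DOX library and 4 of 5 in every DU-145 vehicle library, with GRHL2 in 2 of 3. All 4 mesenchymal markers (VIM, CDH2, ZEB1, TWIST1) had one in every BT-549 library, where none of the 5 epithelial markers had one in all libraries of a group. In BT-549 vehicle, KRT18 had a peak in 2 of 3 libraries and EPCAM and CDH1 in 1 of 3. In DU-145, VIM and ZEB1 also had a peak in every library. The 3 leukocyte and 2 endothelial markers had none in any library. In such bulk libraries, more open copies per cell and more cells with an open copy cannot be told apart.

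The promoter region of a gene is the accessible region that holds its MANE Select start or, failing that, the nearest within 1 kb, and all 10 genes had one in both lines. In DU-145 vehicle cells, GATAD2B was the most open, with a level of 5.62 ± 0.380 (SD, n = 3) over 25 bins (chr1:153921801-153924300), and CHD4 had the lowest mean at 0.814 ± 0.0374 over 28 bins (chr12:6606001-6608800), though its libraries overlapped those of MTA1, at 0.942 ± 0.129. HDAC2 (chr6:113969801-113971900) and MTA2 (chr11:62600701-62602800) followed GATAD2B at 3.01 ± 0.0966 and 2.83 ± 0.163, a gap close to their spread. In BT-549 vehicle cells, HDAC2 had the highest mean over its region at 4.38 ± 0.326 (chr6:113969801-113971800), ahead of GATAD2B at 3.71 ± 0.0566 (chr1:153921901-153923900). By the highest bin, GATAD2B was ahead instead, at 11.2 ± 0.763 against 9.25 ± 1.15, with overlapping libraries. MTA3, MTA1 and CHD4 had the lowest means, between 0.907 and 0.944, and did not differ beyond their spread. GATAD2A had its highest level at a start upstream of the MANE start, with 6.32 ± 0.394 in DU-145 (chr19:19385101-19386500) and 5.87 ± 0.668 in BT-549 (chr19:19385101-19386300), against 1.22 ± 0.0755 and 1.58 ± 0.0233 at the MANE start. The MANE start of CHD3 lies in no bin. Its promoter region is therefore a stretch of 7 bins downstream of the start in DU-145 (chr17:7888901-7889600) and a stretch of 37 bins upstream of it, which holds other CHD3 starts and overlaps NAA38, in BT-549 (chr17:7884901-7888600).

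The sequences of 4 of these promoters are shown because they were lower with DOX in DU-145 and differed between the lines in their response. Each is the 250 bases before a RefSeq start, read 5′ to 3′ on the strand of the gene (GRCh38.p14), with capitals for exact matches, on either strand, to the GC box (GGGCGG), the CCAAT box (CCAAT) and the ETS site (CCGGAAGT).
GATAD2B (chr1:153922973-153923222, minus strand): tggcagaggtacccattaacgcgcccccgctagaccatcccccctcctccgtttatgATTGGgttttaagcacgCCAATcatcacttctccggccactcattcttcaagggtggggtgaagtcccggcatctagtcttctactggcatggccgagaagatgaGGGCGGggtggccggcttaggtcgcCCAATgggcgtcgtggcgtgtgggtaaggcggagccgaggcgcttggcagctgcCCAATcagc
HDAC2 (chr6:113971149-113971398, minus strand): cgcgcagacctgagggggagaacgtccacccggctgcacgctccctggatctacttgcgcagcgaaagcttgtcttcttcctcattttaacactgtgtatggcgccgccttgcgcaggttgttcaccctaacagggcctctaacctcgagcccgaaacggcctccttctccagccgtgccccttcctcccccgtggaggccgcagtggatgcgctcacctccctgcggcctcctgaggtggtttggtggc
MTA2 (chr11:62601866-62602115, minus strand): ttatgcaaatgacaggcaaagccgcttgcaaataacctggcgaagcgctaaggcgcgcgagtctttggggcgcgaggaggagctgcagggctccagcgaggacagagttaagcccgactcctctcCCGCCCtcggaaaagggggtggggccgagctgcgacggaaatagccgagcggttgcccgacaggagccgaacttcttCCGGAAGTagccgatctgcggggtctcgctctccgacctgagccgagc
GATAD2A, upstream start (chr19:19385593-19385842, plus strand): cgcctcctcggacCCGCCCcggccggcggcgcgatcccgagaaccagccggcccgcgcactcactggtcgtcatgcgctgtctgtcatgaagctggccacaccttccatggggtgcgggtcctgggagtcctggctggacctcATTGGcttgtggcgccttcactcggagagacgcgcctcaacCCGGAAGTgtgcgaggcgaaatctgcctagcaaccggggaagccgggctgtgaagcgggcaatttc
The GATAD2B promoter held 4 CCAAT boxes and 1 GC box, the upstream GATAD2A promoter 1 of each and 1 ETS site, the MTA2 promoter 1 GC box and 1 ETS site, and the HDAC2 promoter none of the sequences searched. The search covered the 13 windows of 300 bases (250 before to 50 after a start) that RefSeq gives for the 10 genes. The GC box was in 10 of the 13 windows, against 45.0% of all 35116 windows, the CCAAT box in 4 (34.6% of all) and the ETS site in 2 (4.14% of all). The YY1 sequence ATGGCGGC was in 1 (2.996% of all). It was the window of another MTA2 start, downstream of the one shown (chr11:62601251-62601500, minus strand). The AP-1 sequences TGACTCA and TGAGTCA were in none (4.95% of all), nor were those of NRF1 (CGCATGCG, 2.02%), E2F (TTTCGCGC or TTTGGCGC, 1.15%), CRE (TGACGTCA, 1.85%), ZBTB33 (TCTCGCGA, 1.15%) or the E-box (CACGTG, 7.26%). A match describes the letters and is no evidence of binding. The 13 windows were rich in G and C, with a median of 71.6% over the 250 bases before the start and 25 CpG dinucleotides, against 58% and 11 in all windows.

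With DOX, 5 of the 10 promoter regions were lower in DU-145 and none was higher at an adjusted p under 0.05 (edgeR's quasi-likelihood test, Benjamini-Hochberg adjustment over all regions of the table). Over all 79177 regions of the line, 17.4% were lower and 37.1% higher, but among the 11710 regions that hold a MANE start 41.1% were lower and 7.24% higher, so that the share of NuRD promoters was near that of promoters at large. The 5 lower promoters cover a remodeler, 2 scaffold subunits, a deacetylase and a linker.
CHD3, a remodeling ATPase, had levels of 1.84, 1.79 and 1.61 in the vehicle libraries and 0.708, 0.814 and 0.848 in the DOX libraries over the 7 bins downstream of its start. The groups were far apart, and the level fell 2.21-fold (log2 fold change -1.14 ± 0.16 (SE, n = 3), adjusted p = 2.80e-07), the only NuRD promoter in DU-145 to pass a fold change of 2. These 7 bins are not among those of the BT-549 table.
GATAD2B, the linker with the most open promoter, had levels of 5.31, 5.50 and 6.04 in the vehicle libraries and 3.82, 4.45 and 4.02 in the DOX libraries. Every DOX library lay below every vehicle library (log2 fold change -0.45 ± 0.074 (SE, n = 3), adjusted p = 3.31e-06).
HDAC2, a catalytic deacetylase, had levels of 3.09, 3.04 and 2.90 in the vehicle libraries and 2.10, 2.29 and 2.22 in the DOX libraries. The groups did not overlap here either (log2 fold change -0.45 ± 0.084 (SE, n = 3), adjusted p = 2.35e-05). At MTA3, a scaffold subunit, the promoter was less open, with levels of 0.887, 1.09 and 0.904 in the vehicle libraries and 0.676, 0.818 and 0.635 in the DOX libraries (log2 fold change -0.44 ± 0.14 (SE, n = 3), adjusted p = 0.00930). MTA2, also a scaffold subunit, went from 2.83 ± 0.163 (SD, n = 3) to 2.38 ± 0.203 (log2 fold change -0.25 ± 0.087 (SE, n = 3), adjusted p = 0.0159), the smallest of the called changes. The MTA2 call was lost without vehicle replicate 3 (adjusted p = 0.0833) or DOX replicate 3 (0.114), and that of MTA3 without vehicle replicate 2 (0.0979) or DOX replicate 3 (0.0655).
The other 5 promoters were not called. MTA1 had a log2 fold change of -0.37 (adjusted p = 0.0514), CHD4 of -0.24 (adjusted p = 0.127), HDAC1 of -0.12 (adjusted p = 0.461), MBD3 of 0.04 (adjusted p = 0.825) and GATAD2A of 0.11 (adjusted p = 0.371), with overlapping groups. The DU-145 CHD4 region joins the stretch at the MANE start to an upstream start, which are separate regions in BT-549. Over the shared bins at the MANE start (chr12:6606001-6607600) the level went from 0.672 ± 0.101 to 0.715 ± 0.202. At the upstream start (chr12:6608001-6608800) it went from 1.28 ± 0.0688 to 0.803 ± 0.150. The median of all regions was 0.24 on this scale, and relative to it the 10 promoters lay between -1.38 and -0.13, all below. With TMM factors in place of library sums, which bring the median to 0.05, all 10 values were negative and 8 were called, with CHD4, MTA1 and HDAC1 added to the 5. Over all 79177 regions of the line, these factors took the lower calls from 13805 to 20167 and the higher calls from 29363 to 23745. The share of all promoters called with TMM factors was not computed, so the 8 cannot be set against the 41.1%. With the trend of coverage with GC content removed, MTA2 was no longer called, at -0.18 (adjusted p = 0.0867). With loess offsets, GATAD2B, at -0.13 (adjusted p = 0.132), and MTA2, at -0.09 (adjusted p = 0.419), were not called, and CHD3, MTA3 and HDAC2 were.

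**Figure D1:**
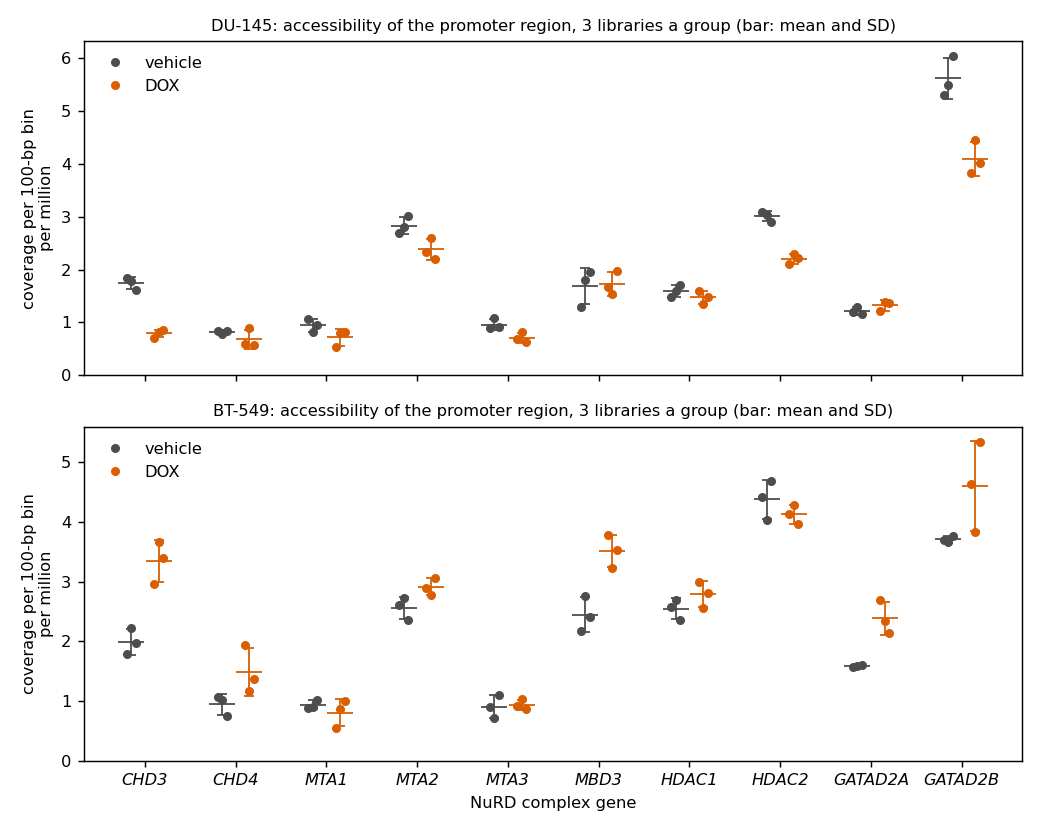
Level of the promoter region of each gene (coverage per 100-bp bin, scaled to the library sum, linear axis from 0) in every library, with DU-145 above and BT-549 below, vehicle in grey and DOX in orange, and the mean and SD of 3 libraries. In DU-145 the DOX points of CHD3, MTA2, MTA3, HDAC2 and GATAD2B lie below all vehicle points, whereas in BT-549 those of CHD3, CHD4, MTA2, MBD3, GATAD2A and GATAD2B lie above them.

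In BT-549, the calls had the other sign. The promoter regions of 5 of the 10 genes (CHD3, CHD4, MBD3, GATAD2A and GATAD2B) were higher with DOX and none was lower. Over all 46298 regions of the line, 12.2% were higher and 18% lower, and among the 11232 regions with a MANE start 18.5% were higher and 6.75% lower. CHD3, over the 37 bins upstream of its start, had levels of 1.78, 2.22 and 1.97 in the vehicle libraries and 2.97, 3.66 and 3.39 in the DOX libraries. The lowest DOX library was well above the highest vehicle library (log2 fold change 0.75 ± 0.11 (SE, n = 3), adjusted p = 8.99e-06). Its paralog CHD4 had levels of 1.07, 1.01 and 0.749 in the vehicle libraries and 1.94, 1.16 and 1.37 in the DOX libraries, with DOX replicate 1 well above the others (log2 fold change 0.65 ± 0.22 (SE, n = 3), adjusted p = 0.0237).
MBD3, the bridge between the modules, had levels of 2.17, 2.76 and 2.41 in the vehicle libraries and 3.77, 3.23 and 3.53 in the DOX libraries (log2 fold change 0.52 ± 0.14 (SE, n = 3), adjusted p = 0.00663). GATAD2A, at its MANE start, had levels of 1.56, 1.58 and 1.61 in the vehicle libraries and 2.69, 2.33 and 2.14 in the DOX libraries. The vehicle libraries were close together and all DOX libraries lay above them (log2 fold change 0.59 ± 0.14 (SE, n = 3), adjusted p = 0.00188). GATAD2B had levels of 3.70, 3.66 and 3.77 in the vehicle libraries and 4.63, 3.83 and 5.33 in the DOX libraries, where DOX replicate 2 was only just above the vehicle libraries (log2 fold change 0.32 ± 0.12 (SE, n = 3), adjusted p = 0.0399).
The scaffold and deacetylase genes were not called in BT-549, with log2 fold changes of 0.19 (adjusted p = 0.243) for MTA2, 0.04 (adjusted p = 0.932) for MTA3, -0.18 (adjusted p = 0.674) for MTA1, 0.13 (adjusted p = 0.535) for HDAC1 and -0.09 (adjusted p = 0.585) for HDAC2. Removing the GC trend left the calls of CHD3, at 0.60 (adjusted p = 2.51e-04), and GATAD2A, at 0.41 (adjusted p = 0.0291), and ended those of CHD4, at 0.43 (adjusted p = 0.140), MBD3, at 0.32 (adjusted p = 0.106), and GATAD2B, at 0.20 (adjusted p = 0.218). GATAD2B was not called with loess offsets either, at 0.22 (adjusted p = 0.174). The GATAD2B call was lost without any library but DOX replicate 2, with an adjusted p of up to 0.272. The CHD4 call was lost without DOX replicate 1 (0.178), vehicle replicate 3 (0.124) or vehicle replicate 2 (0.0522), and the MBD3 call without vehicle replicate 1 (0.0671).

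**Figure D2:**
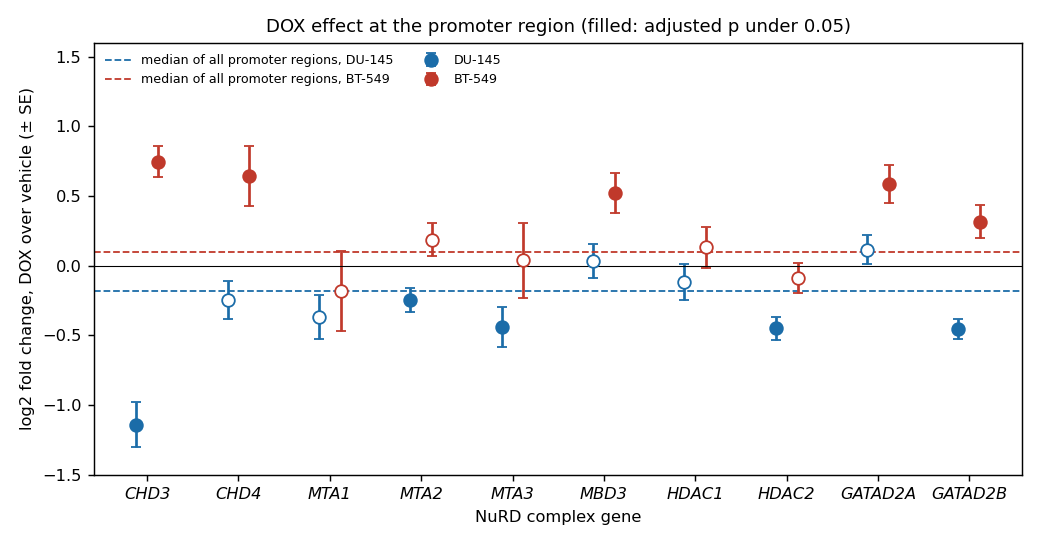
Log2 fold change of DOX over vehicle (± SE, 3 libraries against 3) at the promoter region of each gene in DU-145 (blue) and BT-549 (red), filled where the adjusted p was under 0.05, with dashed lines at the median of all promoter regions of each line. The 5 filled DU-145 points lie below 0, with CHD3 lowest at -1.14, and the 5 filled BT-549 points lie above 0, between 0.32 and 0.75. CHD3 is not the same stretch in both lines, and the CHD4 region of DU-145 also takes in an upstream start.

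Over the whole windows, gene bodies and flanks included, 97 of the 724 bins in DU-145 were higher and 65 lower (22.8% and 11.8% of all bins of the line), and of the 561 in BT-549, 36 were higher and 11 lower (5.03% and 5.91% of all). Within the promoter regions alone, more of the called bins were lower than higher in DU-145, and the reverse in BT-549, where 18 of the higher bins were those of CHD3. The share over the bins of all promoters was not computed. By region, promoters at large leaned the same way, with 41.1% lower and 7.24% higher in DU-145 and 18.5% higher and 6.75% lower in BT-549. Within the promoter regions of the 10 genes, the change was not spread evenly over the bins. At the GATAD2B promoter in DU-145, the 9 lower bins lay from -379 to 421 bp around the start and 4 bins at the upstream edge, from -1279 to -979 bp, were higher. Its highest bin went from 25.1 ± 1.56 to 17.6 ± 0.809 in DU-145 (adjusted p = 2.46e-06) and from 11.2 ± 0.763 to 15.03 ± 0.212 in BT-549, where it was not called (adjusted p = 0.0501). In BT-549, the 3 higher GATAD2B bins lay between 21 and 221 bp downstream of the start.
HDAC2 had 11 lower bins in DU-145, from -303 to 697 bp, and 2 higher ones at the upstream edge. In BT-549, where the region as a whole was not called, 2 HDAC2 bins at -303 and -203 bp were higher (median log2 fold change 0.57) and 4 bins from 697 to 1097 bp were lower (median -1.28). Taken by its highest bin alone, the BT-549 HDAC2 region rose by 0.44 on the log2 scale (adjusted p = 0.0448).
CHD3 in BT-549 had 18 higher bins of 37, with a median log2 fold change of 1.30, spread from -3838 to -238 bp. CHD4, not called as a region in DU-145, held 3 lower bins from -1172 to -972 bp upstream of the start (median log2 fold change -0.84). MTA3 held 4 lower bins around the start in DU-145 (median -0.87) and MTA2 5 (median -0.39).

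**Figure D3:**
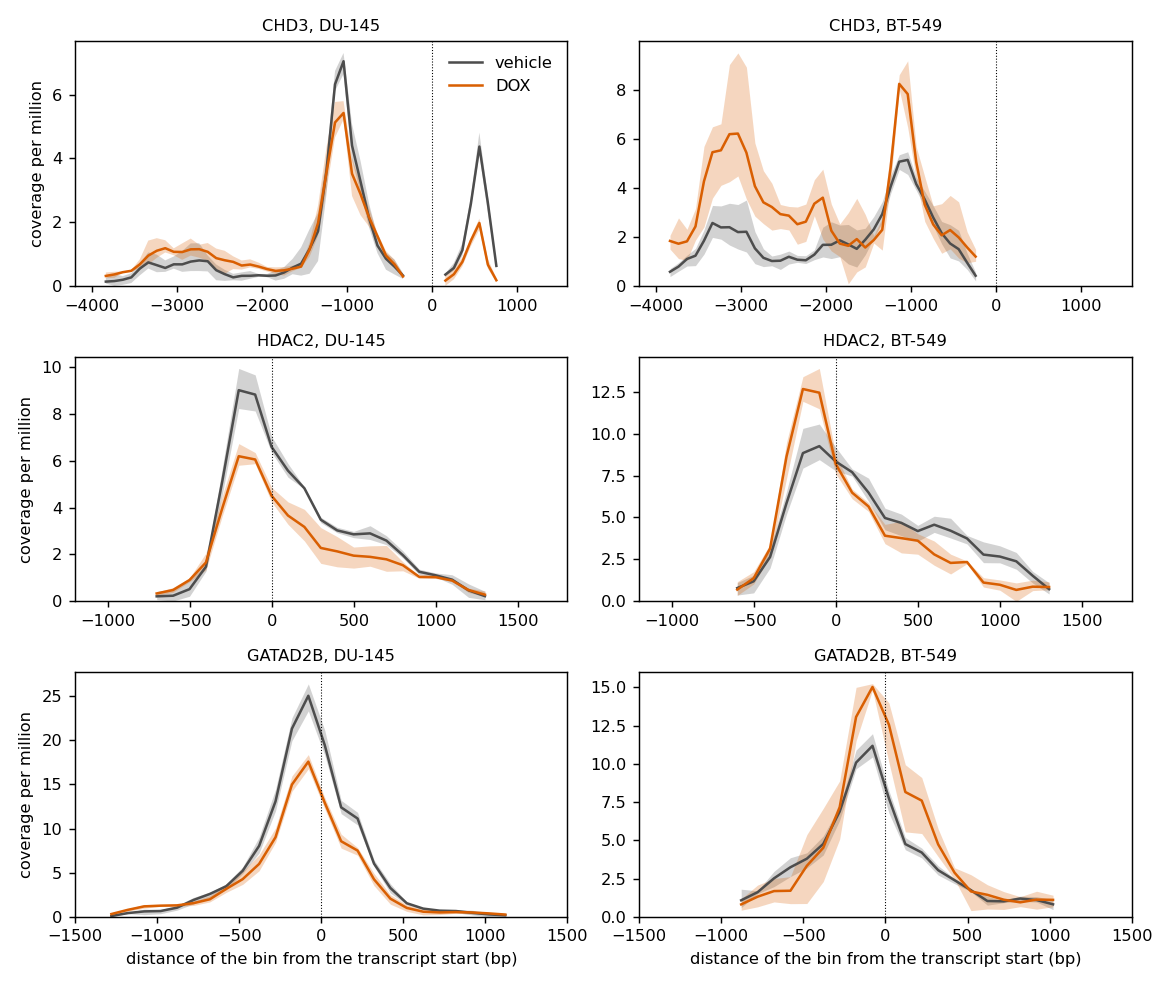
Scaled coverage in each 100-bp bin against its distance from the MANE start (bp, dotted line at 0) at CHD3, HDAC2 and GATAD2B, with DU-145 on the left, BT-549 on the right, and the mean of 3 vehicle (grey) and 3 DOX (orange) libraries and a band from the lowest to the highest library. The GATAD2B peak is lower with DOX in DU-145 and higher in BT-549, and gaps are stretches that the tables do not hold.

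The response of the 2 lines was then compared directly over the shared bins, by the difference of the 2 DOX effects in a fit of all 12 libraries. Of the 38 shared regions, 11 were lower in DU-145 relative to BT-549 and 2 higher, against 17.8% and 22% of all 32671 shared regions. With library sums over the shared bins, 4 were lower and 5 higher, and the share of higher among all calls went from 55.3% to 70.7%. Among the 10 promoters, 6 were lower (CHD3, MTA2, MBD3, HDAC2, GATAD2A and GATAD2B) and none higher, where 37.7% of the 10649 shared regions with a MANE start were lower and 4.30% higher.
GATAD2B had the largest promoter difference by this measure, at -0.81 ± 0.13 (SE, adjusted p = 5.06e-06) on the log2 scale. Over its 20 shared bins the mean level went from 6.93 ± 0.453 to 4.93 ± 0.387 in DU-145 and from 3.71 ± 0.0566 to 4.60 ± 0.750 in BT-549, so that the lines were apart in vehicle and their DOX libraries overlapped. The upstream GATAD2A start differed by -0.75 ± 0.14 (SE, adjusted p = 2.47e-05), where levels in DU-145 were 6.77, 6.03 and 6.16 in the vehicle libraries and 4.50, 4.70 and 4.34 in the DOX libraries (log2 fold change -0.48 ± 0.078 (SE, n = 3), adjusted p = 2.68e-06). In BT-549 the same start had levels of 6.23, 6.29 and 5.10 in the vehicle libraries and 6.46, 7.54 and 7.11 in the DOX libraries (log2 fold change 0.26 ± 0.12 (SE, n = 3), adjusted p = 0.0989) and was not called, though it was with TMM factors, at 0.36 (adjusted p = 0.0237).
CHD3, over the 36 upstream bins, differed by -0.65 ± 0.15 (SE, adjusted p = 7.41e-04). These bins were not called in DU-145 alone, at 0.10 (adjusted p = 0.435). Taken by the highest bin, the stretch was lower in DU-145, at -0.36 (adjusted p = 0.00942). The differences of MBD3, -0.51 ± 0.20 (SE, adjusted p = 0.0352), GATAD2A at its MANE start, -0.47 ± 0.17 (SE, adjusted p = 0.0269), MTA2, -0.44 ± 0.15 (SE, adjusted p = 0.0151), and HDAC2, -0.37 ± 0.13 (SE, adjusted p = 0.0265), were smaller. GATAD2B and the upstream GATAD2A start stayed called with TMM factors, shared-bin sums, loess offsets and the GC trend removed, and CHD3 with all of these but loess offsets (adjusted p = 0.136). MBD3, GATAD2A at its MANE start, MTA2 and HDAC2 were not called with shared-bin sums, loess offsets or the GC trend removed. The 2 lines differ in origin, medium and library depth, and these cannot be told apart from the line.

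Outside the promoter regions, the 10 genes held 54 more regions in DU-145 and 32 in BT-549. In DU-145, 12 of the 28 regions within gene bodies were higher, a share close to the 42.3% among all 67467 regions without a MANE start. Of the 28, 1 was lower, a smaller share than the 13.3% among all regions without a MANE start. Over all 64 regions of the 10 genes, 14 were higher and 12 lower, and 9 passed both an adjusted p of 0.05 and a fold change of 2, or 14.1%, against 29.1% of all regions. The median log2 fold change was 0.10 over the 64 regions and 0.24 over all. With TMM factors, 10 of the 64 regions were higher and 25 lower, and the share of higher regions among all calls of the line went from 68.0% to 54.1%.
The largest gains were in weakly open regions away from the starts. MTA3 had one upstream of its MANE start, in an intron of its longer transcripts (chr2:42566601-42567000), with levels of 0.0761, 0.139 and 0.155 in the vehicle libraries and 0.407, 0.705 and 0.711 in the DOX libraries, a 4.93-fold rise (log2 fold change 2.30 ± 0.37 (SE, n = 3), adjusted p = 2.33e-06). The MTA3 promoter region close by fell. A GATAD2A intron (chr19:19444601-19445100) had levels of 0.108, 0.112 and 0.0682 in the vehicle libraries and 0.374, 0.436 and 0.492 in the DOX libraries, a 4.58-fold rise (log2 fold change 2.196 ± 0.37 (SE, n = 3), adjusted p = 4.53e-06). Beyond the 5′ end of the longest HDAC2 transcript, a region of 12 bins (chr6:114016801-114018000) had levels of 0.310, 0.458 and 0.436 in the vehicle libraries and 1.17, 1.23 and 1.39 in the DOX libraries. No library of one group reached the other, and the rise was 3.10-fold (log2 fold change 1.63 ± 0.17 (SE, n = 3), adjusted p = 3.49e-10).
Other weak regions also rose more than 2-fold, within HDAC2 (chr6:113953401-113953800, log2 fold change 1.52, adjusted p = 7.43e-04), MBD3 (chr19:1586601-1587200, 1.503, adjusted p = 1.00e-04), MTA3 (chr2:42585501-42586300, 1.33, adjusted p = 1.52e-05) and GATAD2B (chr1:153905401-153906100, 1.09, adjusted p = 6.76e-04). The HDAC2 and GATAD2B regions were not called with the GC trend removed, at 0.67 (adjusted p = 0.122) and 0.57 (adjusted p = 0.0678). A GATAD2B intron less than 1 kb from the last of these fell instead (chr1:153904501-153904900, log2 fold change -1.12 ± 0.34 (SE, n = 3), adjusted p = 0.00490), a call that was lost without DOX replicate 2 (adjusted p = 0.0508). The other 7 gains were under 2-fold, 3 within GATAD2B, 2 in GATAD2A introns, 1 in an MTA3 intron and 1 beside MBD3, with log2 fold changes from 0.45 to 0.93. With loess offsets, 1 of these 7 was still called, a GATAD2B region (chr1:153805101-153806100), at 0.64 (adjusted p = 9.80e-05).
At the cutoffs of the study's methods (2-fold, with an adjusted p under 1e-05 in DU-145 and 0.01 in BT-549), 3 regions of the 10 genes were higher and 1 lower in DU-145, or 6.25% of 64, against 17.3% of all regions. The bins were kept by the authors where a peak was called in at least 3 replicates, so that a region open in 1 condition only entered the table through that condition.

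**Figure D4:**
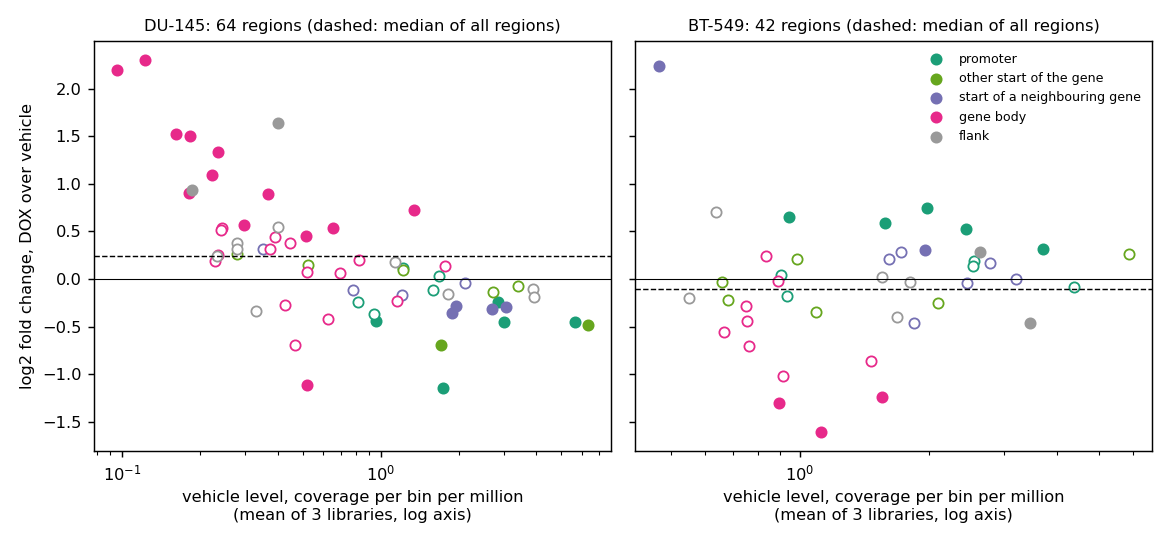
Log2 fold change of DOX over vehicle against the mean vehicle level (coverage per bin scaled to the library sum, log axis) for the 64 regions in DU-145 and the 42 in BT-549, coloured by position and filled where the adjusted p was under 0.05. In DU-145 the filled gains are mostly gene-body regions of low level and the filled losses mostly starts of higher level, and in BT-549 the promoters that passed lie above 0.

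The remaining DU-145 calls were at other starts. The 4-bin region at an internal MTA2 start (chr11:62599101-62599500) fell from 1.71 ± 0.0460 (SD, n = 3) to 1.06 ± 0.149 (log2 fold change -0.69 ± 0.19 (SE, n = 3), adjusted p = 0.00254). Near MTA2, the starts of TUT1 (-0.30, adjusted p = 0.00425) and of EML3 and ROM1 (-0.32, adjusted p = 0.00210) also fell. The starts of RNF227 beside CHD3 (-0.36, adjusted p = 0.0128) and NDUFA13 beside GATAD2A (-0.28, adjusted p = 0.0456) were lower as well, which makes 4 lower and none higher of 8 starts of neighbouring genes, beside the 41.1% lower and 7.24% higher of all regions with a MANE start. The NDUFA13 call was lost with the GC trend removed, at -0.19 (adjusted p = 0.181), and without single libraries (adjusted p of up to 0.191), and that of RNF227 without 1 library (0.0536). With loess offsets TUT1, at -0.18 (adjusted p = 0.0810), and EML3 and ROM1, at -0.16 (adjusted p = 0.118), were not called. The MTA1 window held 12 regions in DU-145, as many as that of GATAD2B, and none of them was called. HDAC1 had none called in either line. Both statements are for library sums and depend on the scaling. With the GC trend removed, none of the 12 MTA1 regions was called in DU-145 either. The MTA1 promoter was then at -0.33 (adjusted p = 0.0679) and the HDAC1 promoter at -0.008 (adjusted p = 0.964). With TMM factors, the DU-145 promoters of MTA1, at -0.56 (adjusted p = 0.00371), and HDAC1, at -0.31 (adjusted p = 0.0369), were called lower. The same held for other regions of the MTA1 window, such as the CRIP2 start, at -0.24 (adjusted p = 0.00792). These 3 were also lower with DESeq2 (adjusted p = 0.00196, 0.0136 and 6.74e-04).
In BT-549, 8 of the 42 regions were higher and 4 lower, 4 passed the fold change of 2 as well (9.52%, against 17% of all regions), and the median log2 fold change was -0.03, against -0.10 over all. With TMM factors, 10 were higher and 3 lower, and the share of higher regions among all calls went from 40.4% to 51.7%. None of the 11 gene-body regions was higher and 3 were lower, where 10.2% of all regions without a MANE start were higher and 21.6% lower. The intronic HDAC2 region at chr6:113994901-113996400 had levels of 1.30, 1.47 and 1.90 in the vehicle libraries and 0.581, 0.509 and 0.854 in the DOX libraries, with every DOX library lower (log2 fold change -1.24 ± 0.24 (SE, n = 3), adjusted p = 2.93e-04). The lines differed there by 1.19 ± 0.24 (SE, adjusted p = 9.74e-05), which was 0.37 (adjusted p = 0.257) with the GC trend removed.
A 3-bin GATAD2B region over exon and intron (chr1:153805401-153805700) had levels of 0.688, 1.05 and 1.63 in the vehicle libraries and 0.143, 0.422 and 0.557 in the DOX libraries (log2 fold change -1.61 ± 0.57 (SE, n = 3), adjusted p = 0.0323), and a 5-bin CHD4 region at the 3′ end of the gene (chr12:6570301-6570800) levels of 0.846, 0.798 and 1.04 in the vehicle libraries and 0.691, 0.175 and 0.234 in the DOX libraries (log2 fold change -1.31 ± 0.47 (SE, n = 3), adjusted p = 0.0341). Both were weakly open. The GATAD2B call was lost without vehicle replicate 2 or 3 or DOX replicate 1, with an adjusted p of up to 0.159, and the CHD4 call without any library but DOX replicate 1, with one of up to 0.140. Neither was called with the GC trend removed, at -1.35 (adjusted p = 0.0842) and -1.21 (adjusted p = 0.0557), or with loess offsets. In DU-145, the GATAD2B region at the same place rose (chr1:153805101-153806100, log2 fold change 0.72 ± 0.13 (SE, n = 3), adjusted p = 1.03e-05), and the lines differed by 2.30 ± 0.52 (SE, adjusted p = 4.61e-04) over the shared bins.
The largest BT-549 gain in any window was at the start of MEX3D, a neighbour of MBD3 (chr19:1568301-1568800), with levels of 0.484, 0.454 and 0.468 in the vehicle libraries and 3.24, 1.596 and 1.80 in the DOX libraries (log2 fold change 2.23 ± 0.34 (SE, n = 3), adjusted p = 1.42e-05). In DU-145 this start was not called, at 0.32, adjusted p = 0.360, and the difference between the lines was -1.92 ± 0.42 (SE, adjusted p = 3.04e-04). The other BT-549 calls were 2 gains at the 3′ side of MTA1, at the start of CRIP2 (0.30, adjusted p = 0.0168) and past it (0.28, adjusted p = 0.0463), and a loss past the 3′ end of GATAD2B (-0.46, adjusted p = 0.0412). All 3 calls were lost with the GC trend removed, at 0.14 (adjusted p = 0.313), 0.10 (adjusted p = 0.561) and -0.41 (adjusted p = 0.0828), and with loess offsets. They were also lost without single libraries, with an adjusted p of up to 0.103, 0.245 and 0.229, and the GATAD2B loss with TMM factors, at -0.36 (adjusted p = 0.125). At the study's cutoffs, 1 region was higher and 1 lower, or 4.76% of 42, against 12.4% of all.

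The vehicle libraries of the lines were compared over the 38 shared regions, of which 9 were higher and 18 lower in DU-145, against 23% and 53.5% of all shared regions, with a median log2 difference of -0.47 over all. Among the promoters, 1 was higher in DU-145 and 6 lower, where 33.3% and 40.7% of the shared regions with a MANE start were.
GATAD2B was higher in DU-145, with levels of 6.59, 6.75 and 7.44 in DU-145 against 3.70, 3.66 and 3.77 in BT-549 (log2 difference 0.90 ± 0.078 SE, adjusted p = 7.76e-13). HDAC1 was lower, with 1.48, 1.59 and 1.70 in DU-145 against 3.30, 3.48 and 2.96 in BT-549 (log2 difference -1.03 ± 0.12 SE, adjusted p = 2.39e-09). The upstream CHD3 stretch was also lower, with 1.04, 1.39 and 1.25 in DU-145 against 1.82, 2.27 and 2.01 in BT-549 (log2 difference -0.72 ± 0.10 SE, adjusted p = 9.30e-08). HDAC2 (log2 difference -0.47 ± 0.084 SE, adjusted p = 5.45e-06), CHD4 (log2 difference -0.57 ± 0.17 SE, adjusted p = 0.00264), GATAD2A (log2 difference -0.37 ± 0.11 SE, adjusted p = 0.00318) and MBD3 (log2 difference -0.30 ± 0.13 SE, adjusted p = 0.0338) were lower by less. MTA1, MTA2 and MTA3, the 3 scaffold genes, were not called, at 0.36, 0.09 and 0.30 (adjusted p from 0.0604 to 0.371).
These directions depend on the scaling. The DU-145 vehicle libraries had 74.1% to 75.01% of their coverage in shared bins and the BT-549 vehicle libraries 81.3% to 82.0%. With TMM factors, 18 of the 38 regions were higher in DU-145 and 11 lower, where 11774 of all 32671 shared regions were higher and 11965 lower. The median over all shared regions became -0.05, and the MBD3 and GATAD2A promoters changed sign, to 0.12 and 0.05. GATAD2B (TMM 1.32), HDAC1 (-0.61) and CHD3 (-0.30) kept direction and call. HDAC2 (-0.06) and CHD4 (-0.15) were no longer called, and MTA1 (0.77), MTA2 (0.51) and MTA3 (0.72) became higher in DU-145. Gene copy number, which was not measured, and the insulin added to the BT-549 medium cannot be told apart from the line.

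**Figure D5:**
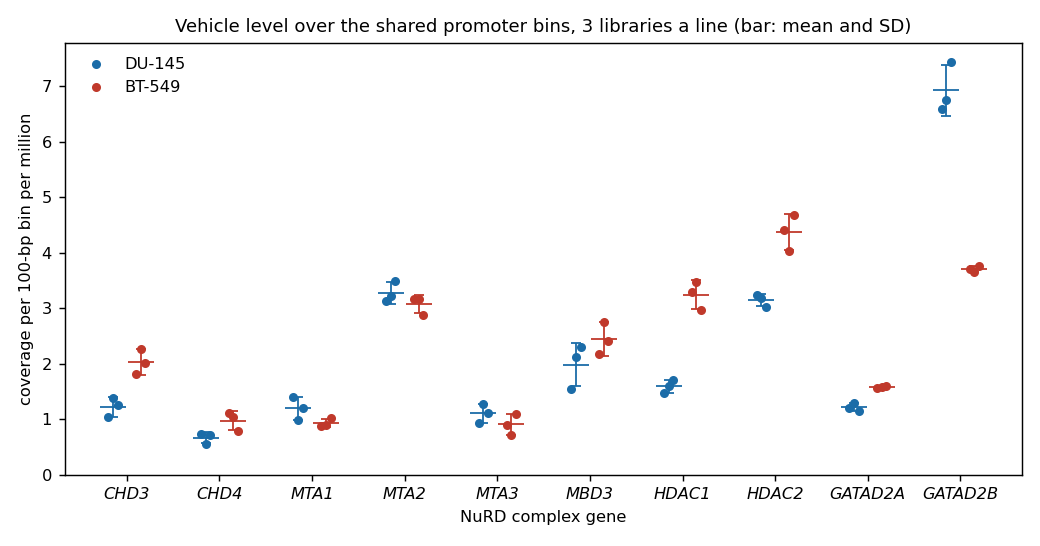
Level of the shared promoter bins of each gene (coverage per 100-bp bin, scaled to the library sum, linear axis from 0) in the 3 vehicle libraries of DU-145 (blue) and BT-549 (red), with mean and SD. GATAD2B is higher in all DU-145 libraries, and HDAC1, HDAC2, CHD3, CHD4 and GATAD2A are higher in all BT-549 libraries.

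The peak lists show each library by itself. Bins entered the tables where peaks were called in at least 3 replicates. Overlap of the promoter regions with peaks was thus largely fixed in advance and is no independent support. All 10 promoter regions overlapped a peak in each DU-145 library and each BT-549 vehicle library, and 8 or 9 in the BT-549 DOX libraries, whose lists hold 30450 to 39837 peaks against 65204 to 93929 in vehicle. The promoters without a peak there were those of MTA1, in all 3 DOX libraries, and MTA3, in 2. The fold enrichment of the highest peak, which MACS2 takes against the local background of its own library and which moves with depth, was highest at GATAD2B in both lines. In DU-145 it was 225 ± 24.2 (SD, n = 3) in vehicle and 161 ± 22.8 with DOX. At CHD3 it was 41.5 ± 6.63 and 19.3 ± 1.28, and at HDAC2 80.2 ± 13.6 and 55.1 ± 2.57. GATAD2A, not called by coverage at its MANE start, had 37.8 ± 4.84 and 39.8 ± 4.17. In BT-549 the same quantity was lower with DOX at every promoter with a peak in all libraries, for example 27.4 ± 3.97 against 16.4 ± 1.16 at CHD3, opposite in sign to the coverage, and the DOX lists come from the shallowest libraries.

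A list of 15 further genes of the complex or its known partners was read in the same way at the promoter. In DU-145, 14 had a promoter region (SALL1 had none), of which 7 were lower and 3 higher, with a median log2 fold change of -0.24. The promoter regions of both histone chaperones were lower, that of RBBP4 by 0.51 on the log2 scale (SE 0.083, adjusted p = 2.54e-06) and that of RBBP7 with -0.41 ± 0.096 (adjusted p = 4.56e-04). The RBBP4 region also holds the MANE start of ZBTB8OS, so its change cannot be assigned to either gene. MBD2, which takes the place of MBD3, was lower at -0.36 ± 0.11 (adjusted p = 0.00429), as were the demethylase KDM1A at -0.45 ± 0.11 (adjusted p = 0.00125) and the partners ZMYND8, PWWP2A and ZFPM1. PWWP2B at 0.39 ± 0.11 (adjusted p = 0.00236), and the transcription factors BCL11A at 0.46 ± 0.10 (adjusted p = 1.97e-04) and SALL4 at 0.90 ± 0.26 (adjusted p = 0.00336), were higher. With TMM factors, PWWP2B was no longer called, at 0.20 (adjusted p = 0.129). With loess offsets, PWWP2A, at -0.07 (adjusted p = 0.407), and SALL4, at 0.48 (adjusted p = 0.119), were not called. With DESeq2, PWWP2B, SALL4 and BCL11A, at 0.15 (adjusted p = 0.351), 0.65 (adjusted p = 0.0692) and 0.22 (adjusted p = 0.0933), were not. Without 1 library, the calls of SALL4 (adjusted p of up to 0.0771) and MBD2 (0.0535) were lost.
In BT-549, 13 had a promoter region (SALL1 and SALL4 had none), of which 4 were higher and none lower, with a median log2 fold change of 0.19. The higher promoters were those of MBD2 at 0.53 ± 0.15 (adjusted p = 0.00652), RBBP7 at 0.35 ± 0.12 (adjusted p = 0.0302), the zinc finger gene ZNF512B at 0.81 ± 0.21 (adjusted p = 0.00375) and ZFPM1, a GATA cofactor that recruits NuRD, at 0.94 ± 0.15 (adjusted p = 2.33e-05). MBD2, RBBP7 and ZFPM1 were called lower in DU-145 and higher in BT-549. The BT-549 call of RBBP7 was lost with the GC trend removed, at 0.15 (adjusted p = 0.391), with loess offsets, at 0.29 (adjusted p = 0.0724), and without single libraries (adjusted p of up to 0.119). Those of MBD2 (0.0538) and ZNF512B (0.0627) were also lost without single libraries, and that of ZFPM1 was kept in each of these settings. These counts, like those of the 10 genes, stood beside 41.1% lower promoters in DU-145 and 18.5% higher promoters in BT-549.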

How the data were processed

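ATAC-seq of DU-145 and BT-549 cells was read from 2 bin tables and 12 peak lists. Per the labels and the study's methods, the authors aligned reads to GRCh38 with BWA, removed duplicates with Picard, called peaks per replicate with MACS2 2.2.7.1 (q 0.05) and kept regions found in at least 3 replicates. The deposited bin values are estimated counts, the mean fragment coverage of each 100-bp bin, not scaled for depth and not whole. Adjoining bins share fragments. The deposited peak lists hold the integer MACS2 score, the fold enrichment over local background and the −log10 p and q values. Score and −log10 p were not used.

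Bins of a region were summed and rounded to whole numbers. Library sums set the scale, features with a total of at least 10 were kept, and edgeR 4.0.16 (R 4.3.3, quasi-likelihood, robust) with Benjamini-Hochberg adjustment over all features gave the tests, called at an adjusted p under 0.05. SE is the log2 fold change over the square root of F. Lines were compared in vehicle, and their DOX effects by an interaction term. The scripts were tested on simulated data. DESeq2 1.42.0, limma 3.58.1 loess offsets, TMM and RLE factors, a GC correction, other filters, the highest bin or mean of the bins, a replicate block and leaving out each library were the alternatives. Samples were grouped by the labels. The named regions are the promoter regions and others called with a fold change of at least 2. Regions named beyond these were chosen after their values were seen. The members and lists were chosen with earlier results of these data known.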

Additional observations from a re-analysis of the deposited data

Results flagged for a closer look

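The DOX effect differed between the lines in 13 shared regions by the interaction term of edgeR's quasi-likelihood test. Values are the log2 effect in DU-145 minus that in BT-549. At promoters it was -0.65 for CHD3, -0.44 for MTA2, -0.51 for MBD3, -0.37 for HDAC2, -0.47 for GATAD2A and -0.81 for GATAD2B, and -0.75 at the upstream GATAD2A start. At starts of neighbouring genes it was -0.56 for RNF227, -0.30 for CRIP2 and -1.92 for MEX3D, and -0.35 at the region beyond CRIP2. It was positive within HDAC2 (1.19) and GATAD2B (2.30). The MEX3D start, the upstream GATAD2A start and the GATAD2B promoter and internal regions were called under TMM factors, shared-bin sums, loess offsets and the GC correction alike.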

How the results depend on the processing

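The counts are of regions or bins of the 10 genes called in either direction. In DU-145, 26 regions became 12 with the mean of the bins and 20 to 26 without single libraries. In BT-549, 12 became 6 with loess offsets, 6 with the GC correction, 1 with the mean of the bins and 5 to 11 without single libraries. Over all BT-549 regions, the mean of the bins also took the calls from 5642 higher and 8329 lower to 995 and 1126. The 162 DU-145 bins became 71 with DESeq2 and 121 to 146 without single libraries, and the 47 BT-549 bins 19 and 22 to 45. Over all DU-145 bins, DESeq2 also took the calls from 161406 higher and 83619 lower to 63617 and 63956. The 13 differences between lines became 8 with the GC correction and 8 to 13 without single libraries, and the 27 differences in vehicle 26 to 29.

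Signs reversed (log2) for the HDAC2 promoter in BT-549 with the highest bin (0.44), and for the line difference of the MTA1 region at CRIP2 with TMM (0.36), RLE (0.38) and DESeq2 (0.38), MEX3D with loess (0.79), MBD3 with TMM (0.12), RLE (0.13) and DESeq2 (0.13), and GATAD2A with TMM (0.046), RLE (0.060) and DESeq2 (0.061). The differences in DOX effect at the MTA1 regions at and beyond CRIP2 reversed with loess (0.18 and 0.088). The causes were not tested.

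Replicate numbers did not pair the samples: deviations of same-numbered libraries correlated between -0.035 and 0.0692. With a replicate block, 14 regions were higher and 12 lower in DU-145, 8 and 4 in BT-549, 9 and 18 between lines and 3 and 11 in their difference, with 93 and 67 bins in DU-145 and 35 and 8 in BT-549.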
